A study of Homo sapiens with 6 samples.

Results

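Zinc finger genes with a ZNF symbol were examined in K562 cells, an established line of human chronic myeloid leukemia cells that carries Bcr-Abl. The genes were chosen by name and by level: a symbol made of ZNF and a number (a letter may follow), 1 row per gene, the one that had the most reads in the 6 libraries together, and a mean RPKM (reads per kilobase of row, relative to the library's summed reads) of at least 1. By this rule 229 of the 498 ZNF genes in the deposited table were expressed, and 269 lay under the minimum, 25 of them with no read. The rule used read counts and RPKM of all 6 libraries, so the level of these genes is a description and not a finding, and the comparison between the groups was not part of it. The lowest members were ZNF837 and ZNF286A, both at a mean RPKM of 1.02, and the nearest genes left out were ZNF717 at 0.986 and ZNF496 at 0.985. The control mean was under 1 RPKM in 18 members, 10 of which were called higher in the other group, and the knockdown mean was under 1 RPKM in 1 member, ZNF837, which was called lower. These members passed the minimum only through the group in which they were high, so a difference was in part set by the minimum. The 10 called higher were ZNF217, ZNF813, ZNF441, ZNF275, ZNF708, ZNF800, ZNF888, ZNF106, ZNF761 and ZNF131.

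Total RNA was sequenced from 3 control samples, in which the shRNA was directed to luciferase (sh-luc), and from 3 samples in which it was directed to a long noncoding RNA, named lncRNA-IIRX in the labels and lncRNA-IUR-5 in the study (sh-lncRNA-IIRX). Both groups carry a stably expressed shRNA vector, each group was made with 1 shRNA, and the 3 samples of a group were described as independent. The comparison asks which transcripts differ once this lncRNA is depleted. The table lists protein accessions, so the lncRNA itself, and thus its knockdown, was not analysed here.

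The ZNF genes encode C2H2 zinc finger proteins, in which a pair of cysteines and a pair of histidines hold a zinc ion in each finger and neighbouring fingers read neighbouring bases of DNA. Many carry a KRAB domain, which binds the corepressor TRIM28 and through it brings the histone H3 lysine 9 methyltransferase SETDB1 to the bound site, often inside a transposable element. Large clusters of these genes lie on chromosome 19, where they multiplied by tandem duplication, so that paralogs share much of their coding sequence. One finger of ZNF664, at hg38 chr12:124012409-124012489 on the plus strand in exon 5 of 5, is shown because this unit is what family members share. The capitals mark the codons of the linker to the next finger.

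ZNF664: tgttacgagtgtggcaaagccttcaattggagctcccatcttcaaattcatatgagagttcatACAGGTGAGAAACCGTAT

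A GENCODE transcript with the coding length of the row was found for 198 of the 229 genes. In these the median number of fingers was 9 and the highest was 31, in ZNF91. A KRAB A box was found in 104 of the 198 proteins, and 85 of the 198 genes lay on chromosome 19, 60 of them with the box. Members were low in these cells, with a median of 2.57 RPKM against 8.02 RPKM over all 8873 genes fitted with 1 row each.

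The libraries held 21023739 to 31481109 reads, and 3 reads in a row of 1 kb correspond to 0.0953 to 0.143 RPKM. All 13 listed K562 markers, fetal and embryonic globins and erythroid factors among them, had a mean RPKM of at least 1, and 1 of 7 markers of other blood cells did (PTPRC). The summed RPKM of the K562 markers ranged from 22684 to 25362 in control libraries and from 17831 to 18719 in knockdown libraries. That of the other markers was 2.35 to 2.63 and 1.72 to 2.05. The part of these differences in the results on the ZNF genes was not tested. The trimmed-mean (TMM) scaling factors ran from 0.925 to 0.938 for the controls and from 1.05 to 1.11 for the knockdown, and scaling to total reads in place of TMM moved the median log2 fold change of all 38204 accessions from 0.005 to 0.20. RPKM values below are relative to total reads. Fold changes are sh-lncRNA-IIRX over sh-luc on the log2 scale with TMM scaling, with adjusted p-values from edgeR's quasi-likelihood test over all 38204 accessions.

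Of the 229 expressed ZNF genes, 59 (25.8%) were higher and 43 (18.8%) were lower in the sh-lncRNA-IIRX cells, and 127 did not pass the threshold of 0.05 on the adjusted p. Over all accessions the same test called 19.2% higher and 18.1% lower, and over the 8873 genes with 1 row each 22.4% higher and 23.5% lower. The shares among the ZNF genes were thus near the background. Among the 210 members with a mean of at least 1 RPKM in both groups 49 (23.3%) were higher and 42 (20%) lower, beside 21.3% and 24.3% of the 8503 genes that met the same bound. The median log2 fold change of the ZNF genes was 0.08, between -0.97 and 1.34, against -0.01 over all genes with 1 row each. Of the calls, 57.8% were higher, and with scaling to total reads 72.7% were (88 members higher, 38.4%, and 33 lower, 14.4%, beside 34.6% and 8.59% of all accessions). All 59 members called higher and 33 of the 43 called lower were called in the same direction under both scalings. A series was read from the number suffixes in the sample descriptions, which do not say what these stand for. With a term for this series 64 members were higher and 51 lower, and within the second series alone, with 2 libraries a group, 56 and 43. Shares over all accessions in these fits are not given here, so the counts are not set against a background. The first series holds 1 library a group and allows no test. The RPKM values of the 3 sh-lncRNA-IIRX libraries all lay above those of the sh-luc libraries in 108 members (47.2%, beside 42.6% of all genes) and all below in 32 (14.0%, beside 14.7%).

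**Figure D1:**
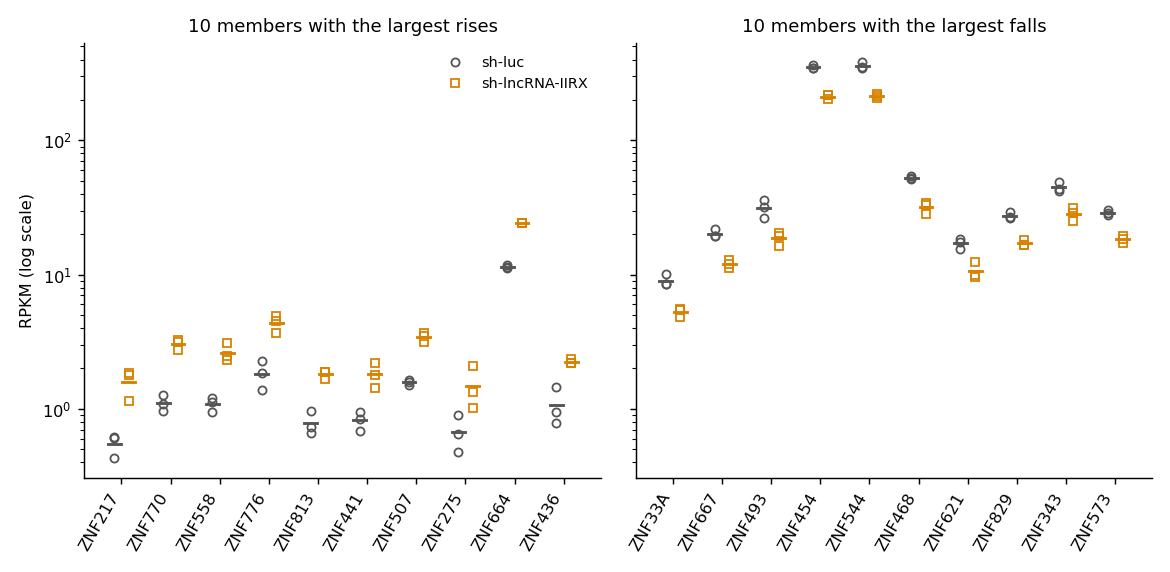
RPKM (log scale) of the 10 ZNF genes with the largest rises, at left, and the 10 with the largest falls, at right; circles are the 3 sh-luc libraries, squares the 3 sh-lncRNA-IIRX libraries and bars their means. The groups do not overlap in any of these 20 genes. That is in part set by the choice of called genes with large fold changes and 1 direction in all 3 same-numbered pairs. Of the 10 that rose, 9 lie under 5 RPKM, while the 10 that fell reach 380 RPKM. ZNF217, ZNF813, ZNF441 and ZNF275 reached the minimum only through the knockdown libraries.

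Among members with at least 1 RPKM in both groups, the largest rise was in ZNF770. Its row (hg38 transcript at chr15:34978341-34988287, minus strand) held 0.971, 1.08 and 1.26 RPKM in the sh-luc libraries and 3.24, 2.75 and 3.13 RPKM in the sh-lncRNA-IIRX libraries. Every knockdown library lay above every control library, and the log2 fold change was 1.27 ± 0.14 (SE, n = 3 and 3, edgeR adjusted p = 3e-06). ZNF664, whose finger is printed above, was the most abundant of the 10 leading rises, at 11.2, 11.9 and 11.4 RPKM in the sh-luc cells and 24.2, 24.4 and 24.4 RPKM in the sh-lncRNA-IIRX cells. The spread within each of its groups was small beside the gap, and the log2 fold change was 0.89 ± 0.10 (edgeR adjusted p = 1.5e-06).

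The 10 leading rises by fold change also held the KRAB genes ZNF558, ZNF776, ZNF813, ZNF441 and ZNF436 and the genes without the box ZNF507, ZNF217 and ZNF275. ZNF776 (chr19:57746815-57758148) held 1.38, 2.26 and 1.86 RPKM in the controls and 4.51, 3.7 and 4.9 RPKM in the knockdown, a log2 fold change of 1.07 ± 0.16 (edgeR adjusted p = 6.5e-05). ZNF507 (chr19:32345610-32387667) held 1.51, 1.65 and 1.6 RPKM in the controls and 3.71, 3.16 and 3.47 RPKM in the knockdown, a log2 fold change of 0.93 ± 0.11. Neither gene's groups overlapped. ZNF217, ZNF813, ZNF441 and ZNF275 had control means of 0.550, 0.791, 0.824 and 0.677 RPKM and reached the minimum only through the knockdown libraries, so their values are given as a description. ZNF217 (chr20:53567071-53593839, minus strand), which encodes a repressor that works with the CtBP corepressors and is amplified in breast cancer, held 0.613, 0.432 and 0.605 RPKM in the controls and 1.86, 1.14 and 1.78 RPKM in the knockdown, a log2 fold change of 1.34 ± 0.20. ZNF275 held 0.65, 0.9 and 0.48 RPKM against 1.35, 2.08 and 1.02 RPKM, its row held only 10 to 50 reads, and its call passed in 3 of the 6 fits that left out a library. ZNF813 shares 16.6% of the 50-base windows of its coding sequence with another gene, so its reads are uncertain. Over the 49 members called higher with at least 1 RPKM in both groups, the median log2 fold change was 0.60, 3 rose at least 2-fold, and the median level was 2.75 RPKM.

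The falls looked different. Over the 43 members called lower the median log2 fold change was -0.74 and none reached 2-fold, while their median level was 12.8 RPKM and the highest was 287 RPKM. The most abundant was ZNF544 (chr19:58228914-58263644), a KRAB zinc finger gene, at 380, 351 and 343 RPKM in the sh-luc libraries and 223, 207 and 214 RPKM in the sh-lncRNA-IIRX libraries. Its groups lay far apart, with a log2 fold change of -0.93 ± 0.07 (edgeR adjusted p = 1.7e-07). ZNF454 (chr5:178941198-178966433), another KRAB gene, held 367, 349 and 347 RPKM in the controls and 202, 217 and 216 RPKM in the knockdown, a log2 fold change of -0.94 ± 0.07 (edgeR adjusted p = 1.7e-07). The largest fall, in ZNF33A (chr10:38010675-38060087), was from 10.1, 8.45 and 8.54 RPKM to 4.83, 5.43 and 5.57 RPKM, a log2 fold change of -0.97 ± 0.11 (edgeR adjusted p = 1.7e-06). Here too every knockdown library lay below every control library. The row of ZNF33A was not matched to a transcript, so these coordinates may not be those of the row. ZNF33A also shares at least 10% of its 50-base coding windows with another gene, so its reads are uncertain. Its longer row, of 2499 bases and at 1.95 RPKM, had a log2 fold change of 0.14 and no call (edgeR adjusted p = 0.48). ZNF667, ZNF493, ZNF468, ZNF621, ZNF829, ZNF343 and ZNF573 made up the other leading falls, with log2 fold changes between -0.95 and -0.85.

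The rows behind these falls stood apart from the other rows of the same genes. The table has several rows for 153 of the 229 members, 1 for each protein accession. Rows of a gene can have equal lengths, as the 510-base rows of ZNF454 do. In 34 of the 153 members the chosen row had at least 3 times the mean RPKM of the lowest other row. Of these 34 members 21 were lower and 1, ZNF655, was higher, with a median log2 fold change of -0.76. Of the other 119 members with several rows 13 were lower and 38 higher, with a median of 0.15, and of the 76 members with 1 row 9 were lower and 20 higher, with a median of 0.11. The rule picks the most-read row, so a chosen row that stands out is in part what the rule selects. Genes outside the ZNF symbols showed the same order: where the chosen row stood out 478 of 909 were lower (median -0.38), and where it did not 890 of 5131 were (median 0.05).

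In ZNF454 the 510-base rows had 279 to 283 RPKM, while the rows of 1569 bases that encode the longer protein had at most 0.005 RPKM. In ZNF544 the chosen row of 390 bases had 287 RPKM and the 2148-base row 0.890 RPKM. ZNF829 had 22.3 RPKM in its 1542-base row and at most 0.006 RPKM in its 1299-base rows.

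In ZNF493 and ZNF701 rows of the same gene were called in opposite directions. The 312-base row of ZNF493, which encodes no complete finger, fell from 35.9, 32 and 26.4 RPKM to 20.4, 16.3 and 19.4 RPKM, a log2 fold change of -0.94 ± 0.13 (edgeR adjusted p = 1.8e-05). The 2325-base row of the same gene rose by 0.55 on the log2 scale and the 1941-base row by 0.88 (edgeR adjusted p = 0.0034 and 0.00019). In ZNF701 the 1596-base row, at 82.1 RPKM, fell by 0.81 and the 1398-base row, at 1.15 RPKM, rose by 0.67 (edgeR adjusted p = 5.3e-07 and 0.020). ZNF410, which encodes an activator of the chromatin remodeller gene CHD4, had 2 rows at 79.2 and 48.5 RPKM with log2 fold changes of -0.84 and -0.80, and 3 rows at 5.07 to 5.93 RPKM with log2 fold changes of -0.05 to 0.27 that did not pass the test. A fall of the chosen row is thus a statement about that row and not about every isoform. Of the 21 members in the stand-out class called lower, 12 had a longer row, which in 6 was under 1 RPKM, in 3 had no call, in 2 was called lower (ZNF343 and ZNF195) and in 1 was called higher (ZNF493).

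**Figure D2:**
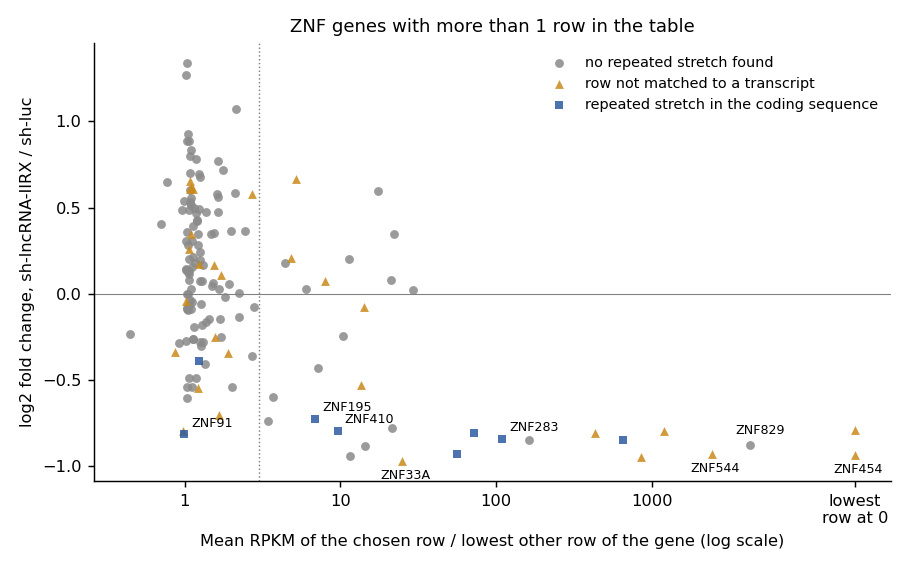
Log2 fold change of the 153 ZNF genes with several rows against the mean RPKM of the chosen row divided by that of the lowest other row (log scale; ZNF415 and ZNF454 are drawn at the right edge because their lowest row is listed at 0). The dotted line is at 3, and symbols show whether the coding sequence holds a stretch found in at least 100 other genes; points above a ratio of 100 all lie between -0.95 and -0.79.

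Some of the falling rows hold sequence that occurs in transcripts of many other genes. In 9 of the 198 members matched to a transcript by coding length, the coding sequence had 31-base windows that lay in the transcripts of at least 100 genes outside the ZNF symbols, on either strand. These 9 were ZNF468, ZNF573, ZNF283, ZNF91, ZNF701, ZNF410, ZNF714, ZNF195 and ZNF669. Their log2 fold changes ran from -0.93 to -0.39, with a median of -0.81, and 8 of the 9 were called lower, all but ZNF669. Such stretches were looked for only in ZNF members, so no share over all genes can be set beside this count. ZNF468, ZNF573, ZNF283, ZNF701, ZNF410 and ZNF195 also had stand-out rows. In that class 61.8% of the members and 52.6% of the genes outside the ZNF symbols were lower. Most of the matched members called lower held no such stretch: of the other 189, 24 were lower and 54 higher (median 0.12), and of the 31 not matched 11 were lower and 5 higher. Of the 25 members with a log2 fold change of -0.7 or lower, 8 held such a stretch and 10 were not matched. The part of these stretches in the falls was not tested.

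The busiest window of ZNF701 lay in 2045 other genes, that of ZNF195 in 1353, that of ZNF283 in 1175, that of ZNF714 in 721, that of ZNF410 in 470, that of ZNF573 in 341, that of ZNF468 in 296, that of ZNF91 in 248 and that of ZNF669 in 126. ZNF283, the member with the most bases inside repeated windows (112), held 31, 29.5 and 29.2 RPKM in the controls and 18.7, 18.8 and 19.8 RPKM in the knockdown (log2 fold change -0.84 ± 0.08, edgeR adjusted p = 4.1e-07). ZNF714, the only one of these genes above 100 RPKM, held 239, 216 and 220 RPKM in the controls and 146, 146 and 154 RPKM in the knockdown (log2 fold change -0.79 ± 0.07, edgeR adjusted p = 3.3e-07). In both genes the groups were apart. Sharing among paralogs was a different measure: 148 members shared no 50-base coding window with another gene, and of the 25 that shared at least 10% of them 5 were higher and 6 lower (median 0.12).

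Transcript length moved with the fold change of the ZNF genes. The matched GENCODE transcripts had a median of 4465 bases for the members called higher, 2383 bases for those called lower and 3192 bases for the others. For the 31 genes with no transcript of the row's coding length this is the length of the MANE transcript, the reference transcript of the gene, which may not be that of the row. Over the 229 members Spearman's rho of log2 fold change with transcript length was 0.43 (0.45 over the 198 matched), with row length 0.18, with coding GC content -0.24 and with mean RPKM -0.38. Over all genes fitted these values were 0.52, 0.32, -0.25 and -0.36. These are correlations across genes that share the same libraries and depths, and genes are not independent replicates.

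The shortest class had the largest share of falls, among the ZNF genes as among all genes. Of the 30 members with transcripts of up to 2000 bases, 13 (43.3%) were lower and 1 (3.33%) was higher, beside 44.7% and 3.12% of all genes of that class, with a median log2 fold change of -0.36 against -0.27. ZNF593, the shortest transcript at 638 bases, and ZNF428 were among them. In the 61 members between 2000 and 3000 bases 4 (6.56%) were higher and 15 (24.6%) lower, beside 16.7% and 17.7% of all genes. In the 41 members between 3000 and 4000 bases 15 (36.6%) were higher and 3 (7.32%) lower, beside 32.8% and 12% (median 0.26, all genes 0.15). Between 4000 and 5000 bases 17 of 39 (43.6%) were higher and 6 (15.4%) lower, beside 39.9% and 8.48%. In the 36 between 5000 and 7000 bases 14 (38.9%) were higher and 3 (8.33%) lower, beside 43.0% and 11.7% (median 0.35, all genes 0.28). Above 7000 bases 8 of 22 (36.4%) were higher and 3 (13.6%) lower, beside 46.6% and 10.6% (median 0.10, all genes 0.27). No difference between ZNF genes and other genes of a length class was tested. When each library's trend on transcript length was removed, 32 members were higher (14.0%, beside 17.3% of all genes) and 37 lower (16.2%, beside 15.3%). The 32 were all among the 59 called before, and 32 of the 43 falls were called again. ZNF770 then had a log2 fold change of 1.05 (edgeR adjusted p = 0.00015) and ZNF217 of 1.11, and ZNF275 was no longer called (adjusted p = 0.14).

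**Figure D3:**
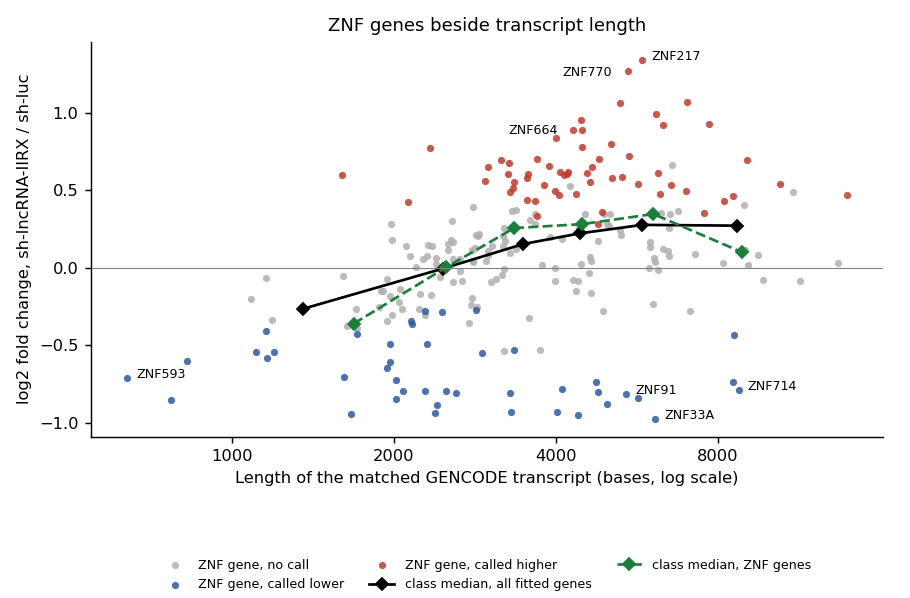
Log2 fold change of the 229 ZNF genes against the length of the matched transcript (log scale), coloured by call, with the median of each length class for the ZNF genes (dashed) and for all fitted genes (solid). Both lines climb from below 0 in the shortest class to above 0.2 between 4000 and 7000 bases, and a band of falling ZNF genes near -0.8 runs across the lengths.

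By protein class, rises and falls occurred in both KRAB and other members. These counts cover the 198 members whose transcript has the coding length of the row, since the protein of the other rows is not known. Of the 104 with a KRAB box 29 (27.9%) were higher and 15 (14.4%) lower (median 0.14). Of the 94 without it 25 (26.6%) were higher and 17 (18.1%) lower (median 0.06). Over all genes with 1 row each 22.4% were higher and 23.5% lower. The 9 members whose transcript encodes no complete finger had a median of -0.60, with 5 lower (55.6%) and 1 higher (11.1%). Their rows were short, such as those of ZNF493, ZNF468, ZNF343 and ZNF621. Members with 1 to 3 fingers had a median of 0.08 (10 of 27 higher, 37.0%, and 6 lower, 22.2%). Those with 4 to 7 had a median of 0.03 (7 of 38 higher, 18.4%, and 7 lower, 18.4%). Members with 8 to 12 fingers had a median of 0.22 (23 of 70 higher, 32.9%, and 9 lower, 12.9%). Those with 13 or more had a median of 0.11 (13 of 54 higher, 24.1%, and 5 lower, 9.26%). Over all 229 members, 21 of 98 on chromosome 19 were higher and 24 lower (median 0.02), and elsewhere 38 of 131 were higher and 19 lower (median 0.12). No difference between these classes was tested.

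**Figure D4:**
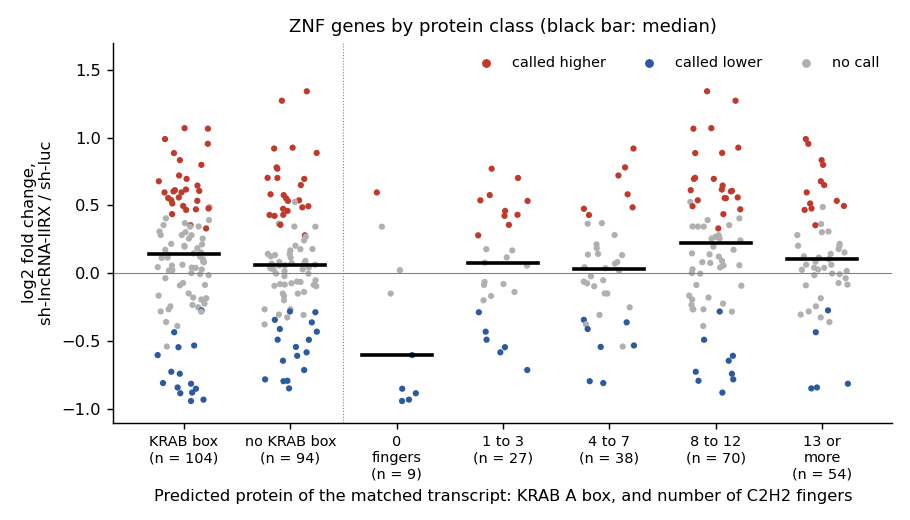
Log2 fold change of the 198 ZNF genes matched by coding length, by KRAB box and by the number of complete C2H2 fingers in the protein of the matched transcript; black bars are class medians and colours the call. Calls in both directions occur in every class, and the median is below -0.3 only in the 9 genes with no complete finger.

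Among promoter and enhancer factors, 10 of 19 listed genes were expressed, with 5 higher, 1 lower and a median log2 fold change of 0.22. ZNF217 and ZNF131, among the 5 called higher, reached the minimum only through the knockdown group, and without such members 3 of 8 were higher (median 0.09, beside 21.3% of all genes with the same bound): ZNF24, ZNF146 and ZNF281. The one that fell was ZNF410. ZNF146, made almost wholly of fingers, held 2, 2.77 and 2.87 RPKM in the controls and 4.05, 4.63 and 4.14 RPKM in the knockdown (log2 fold change 0.55 ± 0.17, edgeR adjusted p = 0.015). ZNF281, a factor of GC-rich promoters, had a log2 fold change of 0.36 ± 0.13 (edgeR adjusted p = 0.044), and its call passed in none of the 6 fits that left out a library.

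Of the ZNF proteins of chromatin complexes, 8 of 12 listed genes were expressed, and 4 (50%) were higher and 0 lower (median 0.30), beside 22.4% and 23.5% over all genes with 1 row each. The count of lower genes was 0 in edgeR at an unadjusted p under 0.05 and 0 in DESeq2 as well. ZNF318, the longest row at 6840 bases, held 4.7, 4.63 and 4.58 RPKM in the controls and 7.49, 6.74 and 7.24 RPKM in the knockdown (log2 fold change 0.43 ± 0.08, edgeR adjusted p = 0.00035). ZNF512, ZNF655 and ZNF451, a SUMO ligase, rose by 0.58, 0.60 and 0.58 on the log2 scale. The value of ZNF655 is that of a stand-out row of 546 bases, which encodes no complete finger. Its rows of 1476 and 1581 bases were under 1 RPKM. The transcripts of these 8 genes had a median of 5535 bases, against 3531 bases over all members. Among all genes with 5000 to 7000 bases 43.0% were higher and 11.7% lower. The part of transcript length in the calls of the 8 genes was not tested.

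KRAB repressors with described targets were mostly low, with 6 of 15 listed genes expressed, 1 higher and 1 lower (16.7% each). Over all genes with 1 row each 22.4% were higher and 23.5% lower. ZNF91, which represses SVA retrotransposons, fell from 8.03, 7.39 and 7.18 RPKM to 4.42, 5 and 5.31 RPKM (log2 fold change -0.81 ± 0.10, edgeR adjusted p = 5.7e-06), and its other row also fell, by 0.88. ZNF267 rose from 1.58, 1.93 and 1.66 RPKM to 3.05, 3.26 and 3.17 RPKM (log2 fold change 0.68 ± 0.13, edgeR adjusted p = 0.00049). Neither ZNF274, which recruits SETDB1 to the ZNF gene clusters, nor ZNF10, the source of the KRAB domain used in many engineered repressors, passed the test, at log2 fold changes of 0.05 ± 0.13 and -0.09 ± 0.12.

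All 12 listed ZNF proteins of ribosomes, RNA and mitosis were expressed, at a median of 18.1 RPKM. Of them 3 (25%) were higher and 2 (16.7%) lower, with a median of -0.08, beside 22.4% and 23.5% over all genes with 1 row each. The large-subunit factors were the ones that fell. ZNF593 held 51.5, 68 and 65.5 RPKM in the controls and 39.5, 46 and 43.6 RPKM in the knockdown (log2 fold change -0.71 ± 0.11, edgeR adjusted p = 7e-05). ZNF622 held 54.9, 59.9 and 54.7 RPKM in the controls and 46.6, 47.8 and 49.5 RPKM in the knockdown (log2 fold change -0.43 ± 0.08, edgeR adjusted p = 0.0003). ZNF593 was not called once the trend on transcript length was removed, at -0.26 (edgeR adjusted p = 0.099), and ZNF622 was, at -0.25 (adjusted p = 0.021). ZNF207, a spindle and kinetochore protein, rose from 16.4, 18.4 and 20.8 RPKM to 28.3, 28.3 and 28.5 RPKM (log2 fold change 0.42 ± 0.09). The chosen row of ZNF385A, which encodes an RNA-binding protein, rose by 0.77 on the log2 scale (edgeR adjusted p = 0.0013). Of the other rows of ZNF385A, those at 0.67 and 0.63 passed the test, while those at 0.09 to 0.38 did not. ZNF106, the other one called higher, had a control mean of 0.791 RPKM and reached the minimum only through the knockdown group (log2 fold change 0.54). ZNF598, a sensor of collided ribosomes, at 0.12 ± 0.09, and ZNF706, the shortest row at 231 bases, at -0.09 ± 0.10, did not pass the test.

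Of 29 listed partners of the KRAB proteins 25 were expressed, with 5 higher (20%), 5 lower (20%) and a median of -0.01. These shares lay near the 22.4% higher and 23.5% lower over all genes with 1 row each. TRIM28 stood at 284 ± 16.4 RPKM (SD, n = 3) in the controls and 281 ± 6.51 RPKM in the knockdown. With TMM scaling its log2 fold change was -0.21 ± 0.07 (edgeR adjusted p = 0.021), and with scaling to total reads it was -0.02 (adjusted p = 0.83). SETDB1, at 3.15 ± 0.163 and 3.88 ± 0.0819 RPKM, had a log2 fold change of 0.11 ± 0.09 (edgeR adjusted p = 0.40) with TMM scaling and of 0.30 with scaling to total reads (adjusted p = 0.016). MPHOSPH8, a chromodomain protein of the HUSH silencing complex, fell by 0.53 and CBX5, which encodes the heterochromatin protein HP1 alpha, by 0.56, while the ATPase MORC3 rose by 0.82. In 8 other zinc finger families (ZBTB, ZSCAN, ZKSCAN, ZFP, KLF and SP, ZC3H, ZMYM and ZDHHC), 31 of 82 expressed genes (37.8%) were higher and 7 (8.54%) lower, with a median log2 fold change of 0.25 and a median transcript of 4449 bases. Over all genes with transcripts of 4000 to 5000 bases 39.9% were higher and 8.48% lower. The median transcripts of the single families ran from 2151 bases (ZSCAN) to 7419 bases (ZKSCAN), so this class is no match for them by length. The part of transcript length in these shares was not tested. Of the 67 with at least 1 RPKM in both groups, 22 (32.8%) were higher and 7 (10.4%) lower (median 0.12). Of the 8503 genes that met the same bound 21.3% were higher and 24.3% lower. The difference between these families and the ZNF genes was not tested.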

How the data were processed

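Total RNA of 6 K562 samples was sequenced, 3 per group as the labels give them. The submitters' processing notes name CASAVA 1.8, Trimmomatic 0.32, Bowtie2 2.1.0, SAMtools 0.1.19 and the build hg38; the RefSeq release, the strand setting and how reads matching more than 1 isoform or place were counted are not given in the sources used here, so reads of overlapping, antisense, paralogous or repeated sequence cannot be told apart. The authors deposited whole read counts per RefSeq protein accession without normalization, the row length, and RPKM values (reads per kilobase of row, relative to the library's summed reads). Nearly all of the 109018 row lengths (99.8%) are multiples of 3, so they are coding lengths. A deposited table of the authors' own comparison (pooled values, fold changes, p-values) was not used.

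Accessions were matched without version to RefSeq GRCh38.p14, which named 70521 rows (64.7%). Read counts of 38204 accessions that reached a mean RPKM of 1 were fitted in edgeR 4.0.16 (R 4.3.3; TMM, quasi-likelihood test, two-sided, Benjamini-Hochberg, threshold 0.05). Alternatives used DESeq2 1.42.0, limma 3.58.1 on log2(RPKM + 0.1), and smooth trends from mgcv 1.9.3. The exact permutation test on a single gene could reach no p under 0.1 with 3 libraries against 3 and was not used for calls. Transcript lengths, GC content, fingers (a pattern with 12 residues between the second cysteine and the first histidine) and the KRAB A box (10 of 12 conserved residues) came from GENCODE v44 on hg38. The transcript had the coding length of the row in 198 members and was otherwise the MANE transcript. Protein classes use the 198. Repeated windows were 31 bases long. The sequences of the repeated stretches are not reported here. The scripts were tested on simulated data.

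The named genes are the 10 largest rises and falls among calls with 1 direction in all 3 same-numbered pairs, the 5 most abundant members, the role lists, the members at the ends of the length and level ranges, TRIM28 and SETDB1. Genes with repeated stretches or stand-out rows, MPHOSPH8, CBX5 and MORC3 were named after their values were seen. The members and lists were chosen with earlier results of these data known. The samples were described as independent, but nothing says that they were separate transductions, so p-values measure the spread between these samples. Libraries 2 and 3 of each group, which share a suffix, were closer to each other than to library 1. The mean chi-square per accession was 2.25 against 3.87 and 3.71 in sh-luc, and 1.74 against 5.78 and 6.55 in sh-lncRNA-IIRX. Whether libraries 2 and 3 are repeats of 1 sample is not stated, and n = 3 counts libraries. In bulk RNA, fewer cells of a kind and less RNA per cell cannot be told apart.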

Additional observations from a re-analysis of the deposited data

How the results depend on the processing

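The counts of 59 higher and 43 lower ZNF genes stayed within 1.5 times under most of 30 alternatives. For most of these, shares over all accessions are not given, so the counts below are not set against a background. Without any 1 library, 48 to 55 members were higher and 38 to 42 lower, with medians of 0.075 to 0.094. Replicate numbers did not pair the libraries (correlations of 0.31, 0.088 and -0.013 for same-numbered libraries, and not every library correlated best with its own number), and with the replicate number as a block 62 were higher and 50 lower. DESeq2 called 48 higher and 38 lower, and 67 and 38 were called on reads summed per gene. The count of higher members moved beyond 1.5 times with a minimum of 5 RPKM (16 of the 66 members left, where the median was -0.17) and with the trend on transcript length removed (32). The count of lower members did so without the 34 stand-out rows (22). The median of 0.082 was 0.063 within the second series, 0.28 with scaling to total reads, 0.26, 0.20 and 0.27 in limma with pseudocounts of 0.1, 1 and 0.01, 0.0021 with quantile normalization, 0.026 with all accessions fitted and 0.0070 or, with the replicate block, 0.0087 without the row length trend. It was 0.024 both without and with the block after removal of length and GC trends, 0.10 in the fit of 1 accession per gene that is its base, 0.021 without the transcript length trend, 0.11 with the longest row of each gene, 0.13 without the stand-out rows and 0.058 among the 210 members with at least 1 RPKM in both groups. The alternatives on transcript length, longest rows, stand-out rows, 1 accession per gene and a minimum in both groups were chosen after seeing the data. The causes of these shifts were not tested, except that a higher minimum and fewer members leave fewer genes to call. Of 1542 values for 63 named genes under alternatives, 1448 kept their direction and side of the threshold, 62 lost it, 30 passed it newly and 2 turned: ZNF638, without a call at 0.08, was -0.20 after removal of length and GC trends without and with the block. At least 20 reads in every library were held by 224 of the 229 members.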
